A study of Mus musculus with 8 samples.

Results

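The 39 genes described here encode the proteins of homologous recombination, of the Fanconi anaemia pathway and of the ATR checkpoint that works beside them. They were taken by name from an expression table of 17634 genes, and all 39 were found there and had enough reads to be tested. RNA was measured in small intestinal crypts, the epithelial pockets that hold the stem cells and dividing progenitors of the gut, from C57BL/6N mice 3 days after irradiation. The compared groups were 4 libraries of crypts from miR-29ab1-/- mice (called knockout, KO) and 4 from mice of the same strain labelled WT. In the knockout the gene pair for miR-29a and miR-29b-1 is deleted. The labels do not say whether each library came from its own animal. Both groups were irradiated, and no unirradiated crypts were analysed here. The sources used here do not give the radiation dose, the age and sex of the animals, or whether every cell carried the deletion. By its title, the study concerns intestinal stem cell fate and the energy metabolism of fatty acids.

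Homologous recombination rebuilds a broken DNA duplex by copying the sister chromatid, and therefore works mainly in cells that are replicating their DNA or have just done so. The Fanconi anaemia proteins serve the same cells when the strands of the helix are crosslinked: a multi-subunit ubiquitin ligase marks a clamp on the DNA, nucleases cut the crosslink free, and recombination mends the resulting break. In the irradiated gut these pathways matter in the dividing cells of the crypt, which must repair their breaks before they can rebuild the epithelium. Most genes of both pathways are transcribed more in cycling than in resting cells.

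The mature microRNAs miR-29a, miR-29b and the related miR-29c share bases 2 to 8, the seed with which a microRNA recognises its targets (capitals). They are shown because a match to that seed in a 3′ untranslated region marks a possible direct target among the 39 genes. The sequences are from RefSeq on GRCm38.p6, where the mature part of Mir29a lies on the minus strand at chr6:31062673-31062694 and that of Mir29b-1 at chr6:31063025-31063047. The same mature miR-29b is also encoded by Mir29b-2, which lies beside Mir29c on chromosome 1 and is not named in the genotype.
miR-29a-3p: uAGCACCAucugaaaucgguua
miR-29b-3p: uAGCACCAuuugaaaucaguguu
miR-29c-3p: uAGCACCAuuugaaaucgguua

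Of the 39 genes, 2 carried the 7-base match TGGTGCT in their longest annotated 3′ untranslated region (5.13 percent), against 15.5 percent of the 12677 tested genes with such a region. The median length of that region was 927 bases in the 39 genes and 1165 bases in all tested genes with one. The 2 were Brca1, with the match at chr11:101489716-101489722, and Blm, with the match at chr7:80455097-80455103, both on the minus strand of GRCm38. Their surroundings, with the match in capitals, are shown here.
Brca1: ctctcagtcttTGGTGCTtccacacccta
Blm: aacattttcttTGGTGCTactgcacatgt

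Brca1 and Blm were both lower in knockout crypts, as described with their roles. A 6-base match (bases 2 to 7) was present in 8 of the 39 genes (20.5 percent), against 33.4 percent of all tested genes with an annotated region.

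In knockout crypts 31 of the 39 repair genes had lower transcript levels than in WT crypts, and none had a higher one. Each gene's count was expressed as CPM, the count relative to the library's TMM-scaled total, and the counts were tested with edgeR's quasi-likelihood test over all 12908 genes that passed a filter on low counts, with Benjamini-Hochberg adjustment and a threshold of 0.05 on the adjusted p. In that test 31 fell (79.5 percent), against 23.1 percent of all tested genes called lower; 0 rose, against 24.2 percent called higher, and 47.3 percent were called in either direction. The 39 genes were chosen with earlier results of these data known, so this share describes the list and does not test it. The falls ran from 1.35-fold in Rbbp8 to 2.85-fold in Eme1, and 15 of the 31 fell by at least 2-fold. The median log2 fold change (knockout over WT) of the 39 was −0.95, against 0.03 over all tested genes. Of all called genes 48.7 percent were lower; with total-count scaling that share was 65.8 percent and the median of all tested genes −0.228, while 32 members fell and 0 rose. In 31 genes every knockout library lay below every WT library, against 22.7 percent of all tested genes; these were the called genes except Fancl, whose groups overlapped, and with Fancg, which was not called. In bulk RNA, fewer cells of a type and less RNA per cell cannot be told apart, here and in what follows.

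The libraries held 9481201 to 14612798 counts in the knockout and 10719668 to 16231099 in WT. The table held 0 miR-29 genes, which leaves the deletion itself unchecked. Crypt markers were present, with the stem cell receptor gene Lgr5 at 10.3 CPM or more in each library. The libraries numbered 4 held 1 Y-linked count in the knockout and 3 in WT, against 1285 to 1659 in the other knockout libraries and 1528 to 2061 in the other WT libraries. Without both of these libraries 30 members fell and 0 rose, against 18.5 percent lower and 17.9 percent higher of all tested genes. Knockout replicate 1 was lowest of all 8 libraries in 29 of the 39 genes. Without it 29 members fell, against 20.1 percent of all tested genes. Exons of 17 of the 39 genes overlap those of a gene on the opposite strand, among them Fanca, Fanci, Eme1, Mre11a, Xrcc3, Rad54l, Rmi1 and Atr, and Rad54b shares exons with Fsbp on its own strand. Whether counting used the strand is unknown, so reads of such pairs may be mixed.

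**Figure D1:**
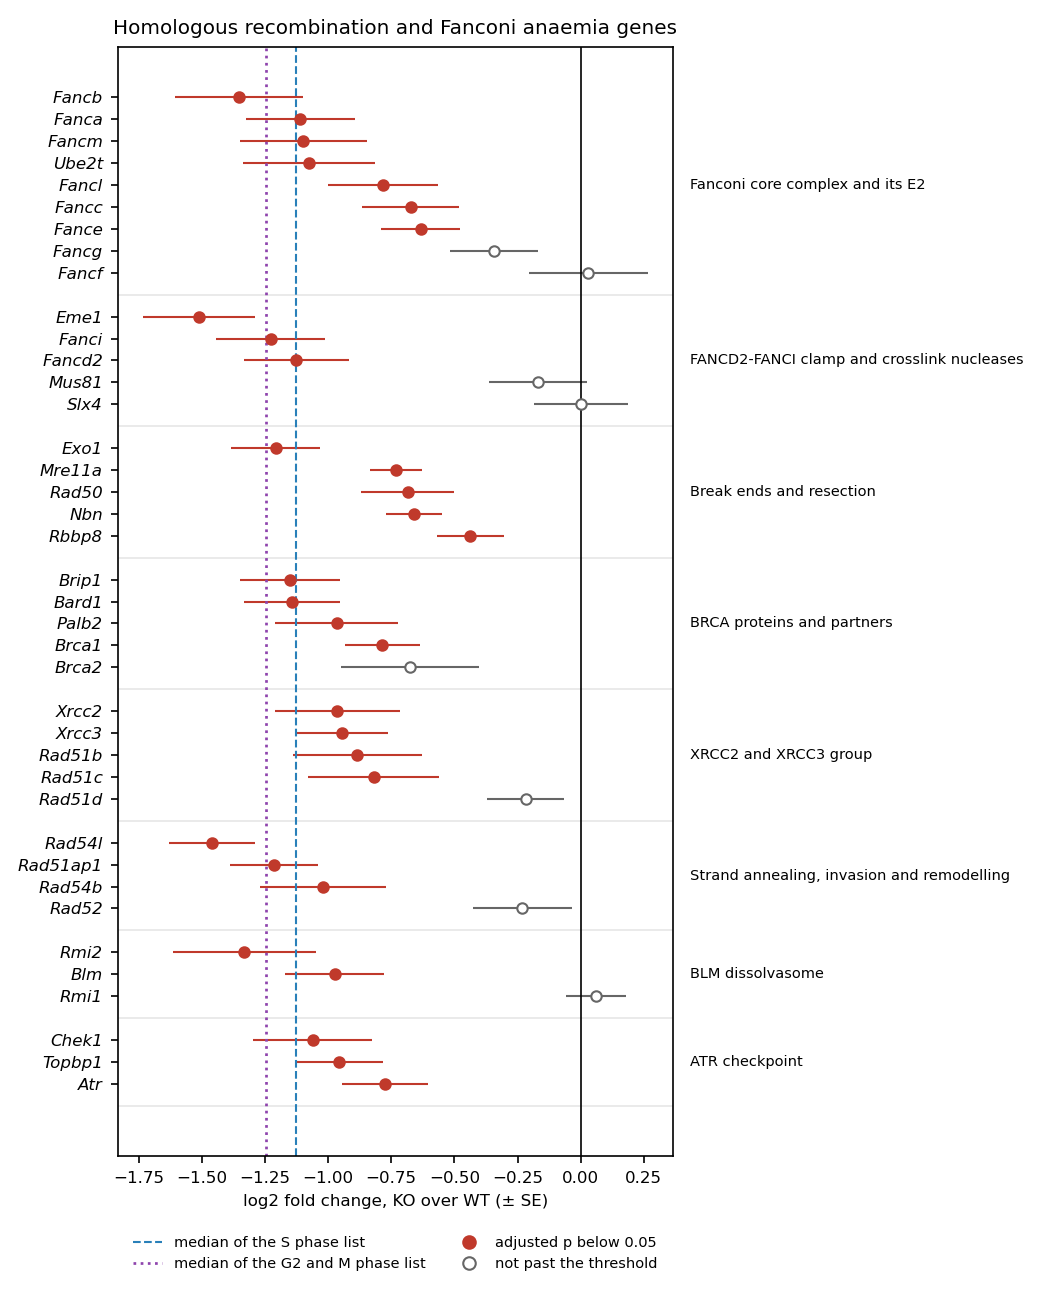
Log2 fold change of each of the 39 genes, knockout (KO) over WT, with its standard error (horizontal bars), grouped by role; filled points passed an adjusted p of 0.05. All 31 filled points lie left of 0, between −1.51 and −0.44, and the dashed and dotted lines give the medians of S phase genes (−1.13) and of G2 and M phase genes (−1.25).

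In the Fanconi core complex, the ubiquitin ligase that starts crosslink repair, 7 of 9 genes fell, counting its partner enzyme Ube2t, and none rose. Fancb, a subunit of the catalytic module, had 2.40, 5.13, 5.19 and 3.56 CPM in knockout replicates 1 to 4, against 9.73, 10.1, 10.2 and 11.5 CPM in WT. All knockout values were below all WT values, and the gene fell 2.55-fold (log2 fold −1.35, SE 0.25, edgeR adjusted p = 0.00289). Fanca, whose loss is the most common cause of Fanconi anaemia in people, had 9.95, 13.7, 17.4 and 20.7 CPM in knockout crypts, against 31.1, 29.6, 32.8 and 39.4 CPM in WT crypts, with no overlap. It fell 2.16-fold (log2 fold −1.11, SE 0.21, edgeR adjusted p = 0.0032).

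Fancm, a translocase that brings the core complex to DNA, averaged 7.58 ± 2.29 CPM in the knockout and 16.2 ± 3.75 CPM in WT (SD, n = 4 each), a 2.14-fold fall. Ube2t, the ubiquitin-conjugating enzyme that serves the complex, fell 2.11-fold to 4.85 ± 1.65 CPM in the knockout, against 10.2 ± 1.85 CPM in WT. Fancl, the subunit with the ligase activity, fell 1.72-fold, but WT replicate 3 at 6.22 CPM lay below knockout replicate 2 at 6.36 CPM. Its call was lost without WT replicate 1 (edgeR adjusted p = 0.0505) and in replicates 1 to 3 alone (0.0675). Fancc and Fance, which bridge the complex to its substrate, fell 1.59-fold and 1.55-fold.

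The remaining core subunits did not pass the test. Fancf, an adaptor, averaged 4.03 ± 0.963 CPM in the knockout and 3.95 ± 0.374 CPM in WT (edgeR adjusted p = 0.925), with a log2 fold of 0.03 whose standard error was 0.24. Fancg, a scaffold for Fanca, averaged 7.06 ± 0.999 CPM in the knockout and 8.95 ± 0.903 CPM in WT (edgeR adjusted p = 0.134). All 4 knockout values of Fancg were below its 4 WT values, and its log2 fold of −0.34 had a standard error of 0.17.

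The clamp that the core complex marks is made of Fancd2 and Fanci, and both of its genes fell. Fanci had 4.89, 6.54, 8.28 and 9.73 CPM in the knockout libraries and 18.04, 14.7, 17.2 and 18.9 CPM in the WT libraries. The groups stood well apart, and the fall was 2.34-fold (log2 fold −1.23, SE 0.22, edgeR adjusted p = 0.00222). Fancd2 fell 2.18-fold to 8.90 ± 2.10 CPM in the knockout, against 19.4 ± 3.48 CPM in WT (SD, n = 4 each; edgeR adjusted p = 0.00268).

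The nuclease genes were split. Eme1 (chr11:94644996-94653964, minus strand, GRCm38), a partner with which the nuclease Mus81 cuts DNA, had the deepest fall of the 39 genes in this test. It had 3.35, 6.28, 5.68 and 7.02 CPM in the knockout libraries, against 16.98, 16.5, 15.001 and 15.2 CPM in the WT libraries. The highest knockout value was less than the lowest WT value by a wide margin (2.85-fold, log2 fold −1.51, SE 0.22, edgeR adjusted p = 0.00131). Mus81 itself averaged 8.65 ± 1.37 CPM in the knockout and 9.73 ± 1.79 CPM in WT and was not called (edgeR adjusted p = 0.502). Slx4 (chr16:3979105-4003770, minus strand), the scaffold that holds Mus81 and other nucleases at a crosslink, had 17.8, 14.1, 24.9 and 24.3 CPM in knockout crypts and 19.4, 19.4, 19.9 and 22.2 CPM in WT crypts. The knockout values of Slx4 spread on both sides of the WT values, and the log2 fold was 0.00 with a standard error of 0.19 (edgeR adjusted p = 0.993).

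All 5 genes that handle broken ends fell. Mre11a, the nuclease of the complex that first binds a break, had 23.7, 25.4, 25.2 and 27.9 CPM in the knockout, against 41.2, 40.3, 40.4 and 47.6 CPM in WT. The 4 knockout libraries lay close together and below all WT libraries, so a fall of 1.66-fold had a small error (log2 fold −0.73, SE 0.10, edgeR adjusted p = 0.00121). Its partners in the complex fell by like amounts, Rad50 by 1.61-fold and Nbn by 1.58-fold (edgeR adjusted p = 0.0138 and 0.0019). Exo1, the exonuclease that lengthens the resected tract, had 11.8, 15.5, 14.0 and 19.5 CPM in knockout libraries and 34.1, 28.6, 36.4 and 41.1 CPM in WT libraries. With no overlap between groups, Exo1 fell 2.31-fold (log2 fold −1.21, SE 0.17, edgeR adjusted p = 0.00125).

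Rbbp8 (CtIP), the cofactor that starts resection with Mre11a, averaged 28.1 ± 3.61 CPM in the knockout and 38.0 ± 4.78 CPM in WT (SD, n = 4 each), the smallest fall among the called members (edgeR adjusted p = 0.0226). That call was lost without knockout replicate 1 (edgeR adjusted p = 0.0503), WT replicate 2 (0.059) or WT replicate 4 (0.0673).

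Of the BRCA genes and their partners, 4 of 5 fell. Bard1, which forms a ubiquitin ligase with Brca1, had 4.03, 5.57, 6.08 and 6.27 CPM in the knockout, against 10.9, 13.7, 10.9 and 12.9 CPM in WT. The groups did not overlap, and the fall was 2.21-fold (log2 fold −1.14, SE 0.19, edgeR adjusted p = 0.00185). Brip1, a helicase that binds Brca1 and is itself a Fanconi gene, had 6.78, 11.1, 8.28 and 11.1 CPM in knockout libraries and 20.3, 18.4, 18.7 and 25.4 CPM in WT libraries. It fell 2.22-fold, again without overlap (log2 fold −1.15, SE 0.20, edgeR adjusted p = 0.00204).

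Brca1, which carries a miR-29 seed match, fell 1.72-fold to 19.2 ± 2.53 CPM in the knockout, against 33.1 ± 4.96 CPM in WT (SD, n = 4 each; edgeR adjusted p = 0.00306). Palb2, the link between Brca1 and Brca2, fell 1.95-fold to 5.47 ± 1.45 CPM in the knockout, against 10.7 ± 2.28 CPM in WT. Brca2, a large mediator of recombination that binds single-stranded DNA, had 9.78, 12.2, 13.6 and 21.4 CPM in knockout replicates 1 to 4 and 19.3, 16.6, 23.4 and 31.4 CPM in WT replicates 1 to 4. Knockout replicate 4 reached into the WT range, and Brca2 was not called (log2 fold −0.67, SE 0.27, edgeR adjusted p = 0.0693). Within each replicate number the knockout value was the lower, and with the replicate block Brca2 was called lower (log2 fold −0.69, edgeR adjusted p = 0.00451). It was also called lower without knockout replicate 4 (edgeR adjusted p = 0.0131), with DESeq2 (adjusted p = 0.0494), with total-count scaling (0.0461) and in replicates 1 to 3 alone (0.0238).

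Xrcc2, Xrcc3, Rad51b, Rad51c and Rad51d encode related ATP-binding proteins that act in recombination once the break ends are resected, and 4 of these 5 genes fell. Xrcc3 had 4.55, 6.98, 5.09 and 5.61 CPM in the knockout and 11.6, 11.6, 9.68 and 10.1 CPM in WT. The groups were separate, and the fall was 1.93-fold (log2 fold −0.95, SE 0.18, edgeR adjusted p = 0.00334). Xrcc2, which works in a different complex from Xrcc3, had 3.26, 5.04, 2.99 and 5.80 CPM in knockout crypts, against 7.89, 8.34, 7.71 and 9.42 CPM in WT crypts, a 1.95-fold fall (log2 fold −0.96, SE 0.25, edgeR adjusted p = 0.0114). All its knockout values were lower than its WT values.

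The lowly expressed genes of this group fell with less support. Rad51b fell 1.85-fold to 1.89 ± 0.251 CPM in the knockout, against 3.50 ± 0.772 CPM in WT (edgeR adjusted p = 0.0188), a call lost without WT replicate 4 (0.0684) and in replicates 1 to 3 alone (0.11). Rad51c fell 1.77-fold to 2.27 ± 0.483 CPM in the knockout, against 4.02 ± 0.813 CPM in WT (edgeR adjusted p = 0.0275). Its call was lost without knockout replicate 1 (0.0601) or 3 (0.0558) and without WT replicate 2 (0.0787), 3 (0.0553) or 4 (0.0634). Rad51d was not called, at 24.4 ± 4.996 CPM in the knockout and 28.3 ± 2.73 CPM in WT (edgeR adjusted p = 0.266); knockout replicate 3 stood at 31.7 CPM, and without that library Rad51d was called lower (log2 fold −0.37, edgeR adjusted p = 0.0327).

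Of the 4 genes for annealing and strand invasion, 3 fell. Rad54l (chr4:116094264-116123690, minus strand, GRCm38), the motor protein that drives strand invasion and remodels the joint molecule, had 12.01, 13.97, 17.95 and 20.1 CPM in the knockout, against 43.3, 39.1, 44.5 and 49.1 CPM in WT. The highest knockout library stood far below the lowest WT library, and the fall was 2.75-fold (log2 fold −1.46, SE 0.17, edgeR adjusted p = 0.00108), with the smallest p of the 39 genes. Rad51ap1, which stimulates joint-molecule formation, had 8.41, 13.3, 9.47 and 12.3 CPM in knockout libraries and 24.2, 28.9, 21.9 and 26.1 CPM in WT libraries. It fell 2.32-fold without overlap (log2 fold −1.22, SE 0.17, edgeR adjusted p = 0.00122). Rad54b, a relative of Rad54l, fell 2.03-fold. Rad52, which anneals complementary strands and in mice is largely dispensable, averaged 4.96 ± 0.739 CPM in the knockout and 5.82 ± 0.656 CPM in WT and was not called (edgeR adjusted p = 0.354).

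The dissolvasome, in which the Blm helicase separates recombined duplexes without crossing over, was split as well. Blm, the other gene with a miR-29 seed match, had 10.6, 16.3, 17.3 and 21.3 CPM in the knockout, against 29.5, 32.1, 30.1 and 36.8 CPM in WT. With all knockout libraries lower, Blm fell 1.96-fold (log2 fold −0.97, SE 0.20, edgeR adjusted p = 0.00379). Rmi2, a small stabilising subunit, had 1.80, 3.09, 4.69 and 3.18 CPM in knockout libraries and 9.37, 7.62, 8.01 and 7.10 CPM in WT libraries, a 2.52-fold fall with no overlap (log2 fold −1.33, SE 0.28, edgeR adjusted p = 0.00477). Rmi1 (chr13:58402248-58411148, plus strand), the scaffold subunit that Rmi2 binds, had 20.0, 22.4, 23.5 and 20.0 CPM in the knockout and 18.3, 20.4, 23.3 and 20.3 CPM in WT. The values of Rmi1 intermingled, and the log2 fold was 0.06 with a standard error of 0.12 (edgeR adjusted p = 0.695).

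All 3 genes of the ATR checkpoint, which holds the cell cycle while single-stranded DNA persists, fell. Topbp1, the activator of ATR, was the most abundant of the 39 transcripts in CPM, with 49.8, 64.5, 70.9 and 83.8 CPM in knockout libraries and 122.6, 109.1, 137.2 and 152.8 CPM in WT libraries. It fell 1.94-fold without overlap (log2 fold −0.96, SE 0.17, edgeR adjusted p = 0.00245). Atr, the kinase itself, had 18.5, 23.1, 26.5 and 29.8 CPM in knockout crypts, against 36.9, 37.5, 41.7 and 51.3 CPM in WT crypts. Its groups were separate, with a 1.71-fold fall (log2 fold −0.78, SE 0.17, edgeR adjusted p = 0.00551). Chek1, the effector kinase downstream, fell 2.09-fold to 12.5 ± 3.94 CPM in the knockout, against 26.0 ± 3.24 CPM in WT (SD, n = 4 each; edgeR adjusted p = 0.00583).

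**Figure D2:**
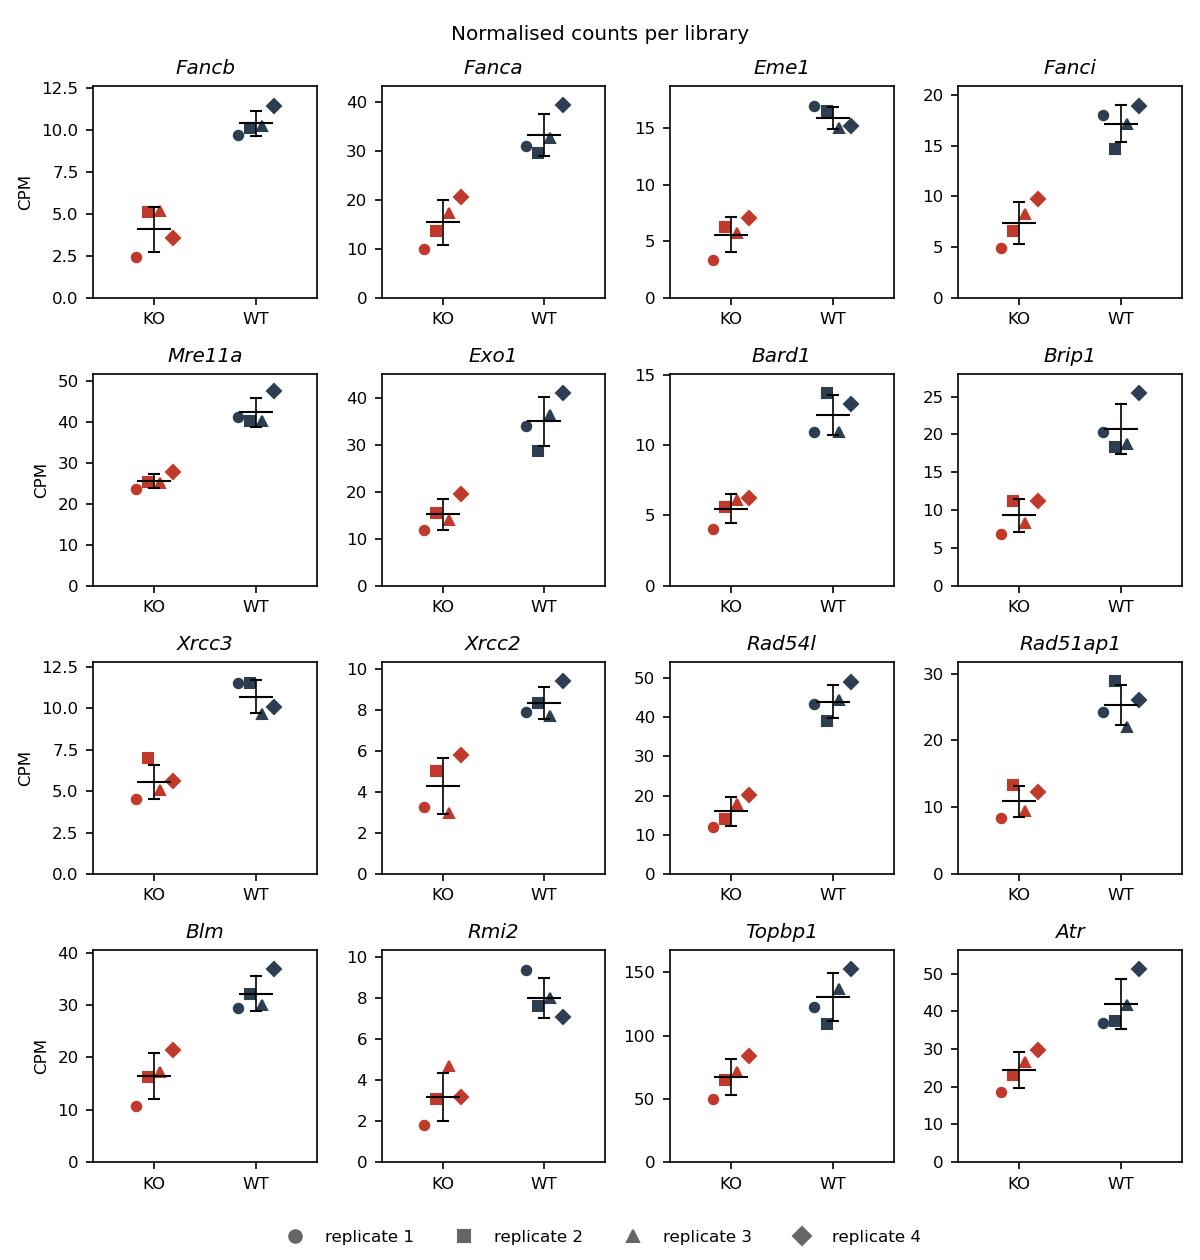
Normalised counts (CPM, linear axes from 0) of 16 genes, the 2 with the smallest p in each of 8 roles, in each library of knockout (KO) and WT crypts; horizontal marks are means and bars are SD over 4 libraries, and symbols give the replicate number. In all 16 panels every knockout point lies below every WT point, with Eme1 at 3.35 to 7.02 CPM in the knockout and 15.001 to 16.98 CPM in WT.

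From a list of further recombination, Fanconi and ATR checkpoint factors 46 genes were tested, with a median log2 fold of −0.44. Of these, 24 fell (52.2 percent), against 23.1 percent of all tested genes, and 0 rose, against 24.2 percent. The 5 with the smallest p were Parpbp, an inhibitor of recombination (2.38-fold lower, edgeR adjusted p = 0.00108), Faap24, a DNA-binding partner of Fancm (1.96-fold lower, 0.00115), Rad9a, a clamp subunit of the checkpoint (1.87-fold lower, 0.00115), Usp1, which removes ubiquitin from Fancd2 (1.70-fold lower, 0.00141), and Clspn, the adaptor between Atr and Chek1 (2.16-fold lower, 0.00209). Usp1 averaged 96.2 ± 10.6 CPM in the knockout and 164 ± 12.2 CPM in WT. A further listed gene, Radx, was not analysed here.

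Markers of cell division were lower in the same libraries. All 28 S phase genes and all 24 G2 and M phase genes of the marker lists, none of them among the 39, fell in the same test, with median log2 folds of −1.13 and −1.25. Of all tested genes 23.1 percent were called lower. The lists were chosen with earlier results of these data known, so these counts do not test whether division markers fell as a set. Summed over the list, S phase genes had 1198 to 1768 CPM in knockout libraries and 2976 to 3484 CPM in WT libraries, and G2 and M phase genes had 934.2 to 1595 CPM in the knockout and 2882 to 3417 CPM in WT. The 39 repair genes together had 408.9, 512.1, 555.7 and 602.9 CPM in knockout replicates 1 to 4 and 873.2, 846.4, 895.8 and 1033 CPM in WT replicates 1 to 4. Their sum therefore averaged 0.57 of the WT level in the knockout, the S phase sum 0.477 and the G2 and M sum 0.427.

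Relative to the division markers of the same library, the summed repair genes averaged 33.75 ± 3.346 CPM per 100 CPM of S phase transcripts in the knockout and 28.1 ± 2.053 in WT, and 40.39 ± 3.073 CPM per 100 CPM of G2 and M transcripts in the knockout and 29.93 ± 0.9025 in WT (SD, n = 4 each). For 100 CPM of S phase transcripts there were 34.1, 29.3, 37.5 and 34.1 CPM of the 39 genes in knockout libraries, against 26.5, 26.1, 30.1 and 29.6 CPM in WT libraries, and knockout replicate 2 lay within the WT range. For 100 CPM of G2 and M transcripts there were 43.8, 37.8, 42.2 and 37.8 CPM in the knockout, against 29.2, 29.2, 31.1 and 30.2 CPM in WT, with no overlap. The sum includes the 8 members that were not called. Scaled to both marker lists, 83.7 percent of all tested genes were called higher, with a median log2 fold of 1.21 over all. A rise in these ratios is therefore not particular to the 39 genes.

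**Figure D3:**
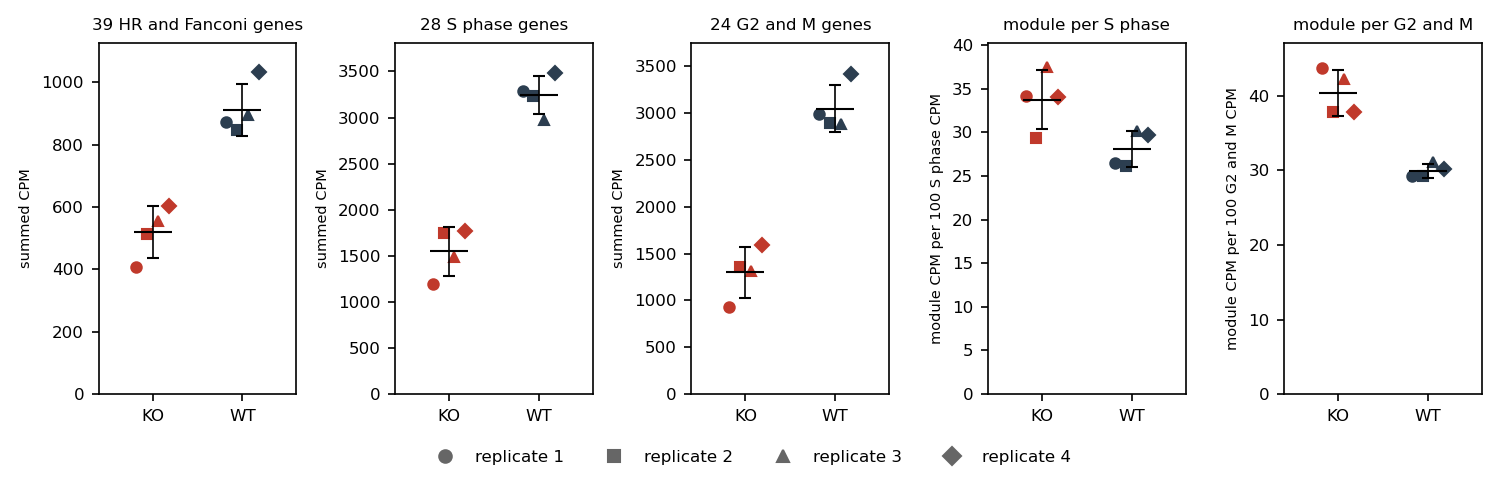
Summed CPM of the 39 repair genes, of S phase genes and of G2 and M phase genes, and the ratio of the repair genes to each marker list, per library of knockout (KO) and WT crypts; horizontal marks are means, bars are SD over 4 libraries and symbols give the replicate number. The 3 sums are lower in every knockout library than in any WT library, while the ratio to G2 and M transcripts is 37.8 to 43.8 in the knockout and 29.2 to 31.1 in WT. Scaled to both marker lists, 83.7 percent of all tested genes were called higher.

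The test was repeated with each library scaled to its summed S, G2 and M phase counts, so that a fold change is relative to division transcripts. On that scale 0 of the 39 genes were lower, against 0.116 percent of all tested genes, and 14 were higher, against 83.7 percent of all tested genes, whose median log2 fold was 1.21. The median of the 39 was 0.20. The 14 were Fance, Fancf, Fancg, Slx4, Mus81, Mre11a, Rad50, Nbn, Rbbp8, Brca1, Rad51d, Rad52, Rmi1 and Atr. They include 7 of the 8 genes that did not pass the test on the ordinary scale, the exception being Brca2.

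The other 25 genes did not pass the test on that scale, which does not show that they changed as the markers did. Among them Fancd2 (log2 fold 0.02, SE 0.16), Bard1 (0.00, SE 0.18) and Brip1 (−0.01, SE 0.15) were closest to 0, while Eme1 (−0.39, SE 0.18, edgeR adjusted p = 0.0633) and Rad54l (−0.31, SE 0.15, edgeR adjusted p = 0.0736) were the lowest. At the other end stood Rmi1 (1.23, SE 0.19, edgeR adjusted p = 0.000327), Fancf (1.22, SE 0.30, edgeR adjusted p = 0.004) and Slx4 (1.17, SE 0.21, edgeR adjusted p = 0.000693). The complex of Mre11a, Rad50 and Nbn lay between, with log2 folds of 0.44, 0.47 and 0.50.

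Marker transcripts of some other cell types differed between the groups too. Of all tested genes, 23.1 percent were called lower and 24.2 percent higher on the ordinary scale. All 14 enterocyte markers rose, with sums of 30160 to 99570 CPM in knockout libraries, against 2744 to 12780 CPM in WT libraries. Goblet cell markers rose in 6 of 7, with sums of 8939 to 14660 CPM in the knockout and 1754 to 4359 CPM in WT. Of 11 markers of Lgr5+ stem cells, 6 fell and 0 rose, with sums of 980.1 to 1597 CPM in the knockout and 1606 to 1947 CPM in WT. Paneth cell markers had 0 calls of 6, with sums of 9358 to 30190 CPM in the knockout and 8700 to 12560 CPM in WT. Immune markers had 0 calls of 10 tested, with sums of 1128 to 3081 CPM in the knockout and 286.7 to 2028 CPM in WT. Fibroblast markers had 1 call, higher, of 6 tested, with sums of 36.68 to 252.9 CPM in the knockout and 35.52 to 220.4 CPM in WT. No gene of these lists was at 0 in every library, and the part of cell composition in the fall of the repair genes was not tested.

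With the knockout libraries lowest in enterocyte markers, replicates 3 and 4, against all 4 WT libraries, 26 of the 39 genes fell and 0 rose, against 20.9 percent of all tested genes lower. Those knockout libraries still had enterocyte sums of 30160 and 47270 CPM, against 2744 to 12780 CPM in WT, so enterocyte content was not matched. This comparison was added after the values were seen. The calls lost in it were those of Fancc, Rad50, Rbbp8, Palb2 and Rad51c (edgeR adjusted p = 0.0572, 0.0522, 0.0953, 0.0538 and 0.124).

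Levels can be compared between genes only per length, as FPKM. Topbp1 was highest in both groups, at 12.5 ± 3.91 FPKM in the knockout and 28.8 ± 5.43 FPKM in WT (SD, n = 4 each), and Nbn came next at 9.33 ± 1.98 FPKM in the knockout and 17.6 ± 1.46 FPKM in WT. Rad51c was lowest in WT, at 0.953 ± 0.246 FPKM in the knockout and 1.95 ± 0.424 FPKM in WT. Its neighbour Rad51b, at 2.215 ± 0.688 FPKM in WT, lay within that spread. The order of the genes changed between groups: Rad54l ranked 15 in the knockout and 5 in WT, and Eme1 ranked 21 in the knockout and 12 in WT. Rmi1 ranked 7 in the knockout and 17 in WT, and Slx4 ranked 14 in the knockout and 24 in WT. These are ranks of means and are approximate. In the knockout the spread of Slx4, 3.87 ± 1.64 FPKM, covered the means of its neighbours Atr (3.89) and Rad54l (3.66). FPKM values were not scaled with TMM factors, which were 0.798 to 1.059 in knockout libraries and 1.041 to 1.19 in WT libraries, so FPKM serves here for the order of genes and not for the size of the difference.

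**Figure D4:**
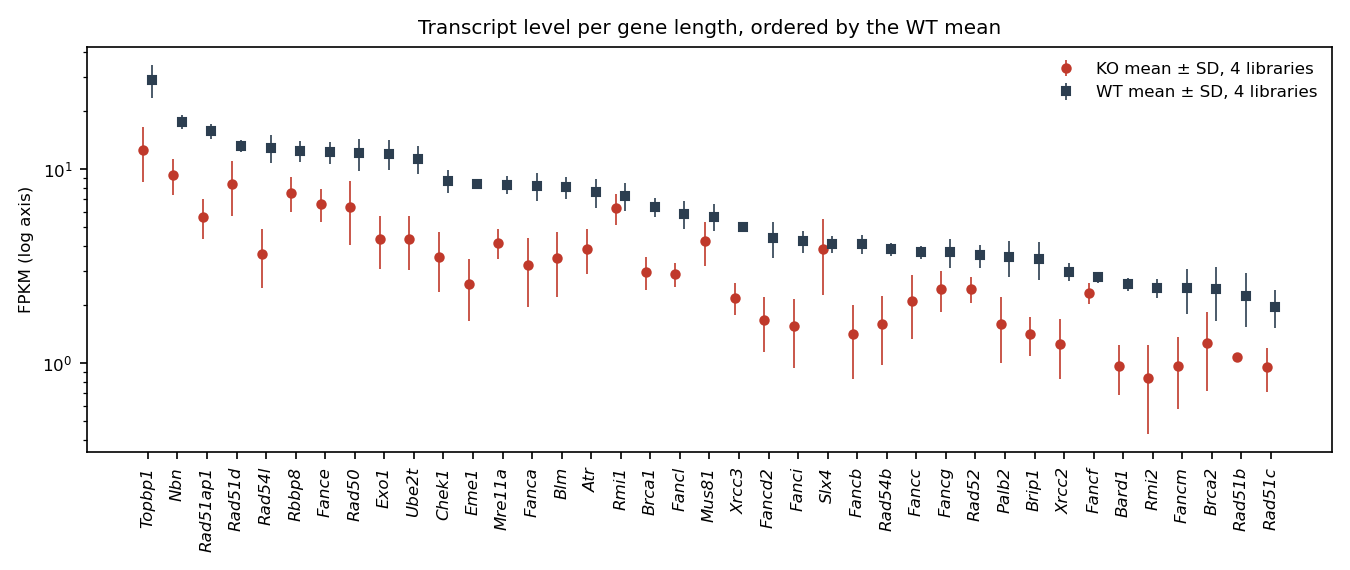
Transcript level of the 39 genes in FPKM (log axis) in knockout (KO) and WT crypts, as mean and SD over 4 libraries, ordered by the WT mean. Every knockout mean lies below its WT mean on this total-scaled measure, and the means come closest for Slx4 (3.87 in the knockout, 4.11 in WT).

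Promoter windows, from 250 bases before to 50 after the annotated gene start, were available from RefSeq (GRCm38.p6) for 30 of the 39 genes, in 34 windows. They were searched on both strands for the words TTTCCCGC, TTTCGCGC, TTTGCCGC and TTTGGCGC of E2F factors, which drive S phase genes, for TTTGAA and TTCGAA, forms of the cell cycle homology region (CHR), and for CCAAT, the word of NF-Y; no word contains another. An E2F word was present in 7 of 34 windows (20.6 percent), against 2.26 percent of all 32851 windows and 6.8 percent of windows of genes called lower. In the 250 bases before the start alone it was in 4 windows (11.8 percent), against 1.86 and 5.42 percent. For windows of called members the share was 15.4 percent, and 7.69 percent before the start alone. CCAAT was present in 21 windows (61.8 percent), against 37.4 percent of all windows, and a CHR word in 4 (11.8 percent), against 19.2 percent of all windows. Before the start alone the shares were 55.9 percent for CCAAT, against 33.8 percent, and 5.88 percent for CHR words, against 17.1 percent. E2F words stood in 3 of the 23 called genes with a window (Bard1, Rad51c and Topbp1) and in 3 of the 7 that were not called (Brca2, Fancg and Rmi1). A match describes letters and not a bound site.

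The windows of Topbp1, Bard1 and Fancg are shown as examples with an E2F word, in genes that fell and in a gene that was not called, and that of Xrcc3 as the window with the most CCAAT words, 6. Capitals mark the words, in either orientation. The windows lie at chr9:103305077-103305376 (plus strand), chr1:71102923-71103222 (minus), chr4:43010252-43010551 (minus) and chr12:111813830-111814129 (minus). The E2F word starts 129 bases before the gene start in Topbp1, 209 in Bard1 and 52 in Fancg, and Bard1 also holds a CHR word.
Topbp1: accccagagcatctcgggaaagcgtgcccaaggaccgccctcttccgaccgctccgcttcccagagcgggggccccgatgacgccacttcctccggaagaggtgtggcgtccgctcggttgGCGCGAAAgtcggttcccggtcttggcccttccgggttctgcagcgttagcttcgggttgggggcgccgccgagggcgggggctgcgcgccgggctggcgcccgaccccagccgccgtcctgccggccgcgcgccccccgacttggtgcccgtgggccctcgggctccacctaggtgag
Bard1: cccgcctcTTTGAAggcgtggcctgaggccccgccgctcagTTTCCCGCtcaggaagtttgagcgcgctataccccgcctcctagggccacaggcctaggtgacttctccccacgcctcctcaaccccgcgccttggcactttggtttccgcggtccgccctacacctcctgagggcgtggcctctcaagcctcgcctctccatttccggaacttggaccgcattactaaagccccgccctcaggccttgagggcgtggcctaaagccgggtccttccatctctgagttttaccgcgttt
Fancg: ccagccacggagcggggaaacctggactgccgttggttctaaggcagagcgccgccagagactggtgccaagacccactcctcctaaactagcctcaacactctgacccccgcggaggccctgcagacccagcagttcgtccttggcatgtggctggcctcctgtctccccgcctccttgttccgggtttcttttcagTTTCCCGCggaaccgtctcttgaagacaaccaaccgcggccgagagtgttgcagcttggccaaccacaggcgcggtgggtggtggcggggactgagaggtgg
Xrcc3: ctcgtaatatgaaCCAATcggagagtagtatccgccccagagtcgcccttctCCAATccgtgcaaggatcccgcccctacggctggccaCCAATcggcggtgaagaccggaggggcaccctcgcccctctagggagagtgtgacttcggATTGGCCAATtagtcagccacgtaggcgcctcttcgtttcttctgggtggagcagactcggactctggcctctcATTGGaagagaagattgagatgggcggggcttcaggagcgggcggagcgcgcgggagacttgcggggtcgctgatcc

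**Figure D5:**
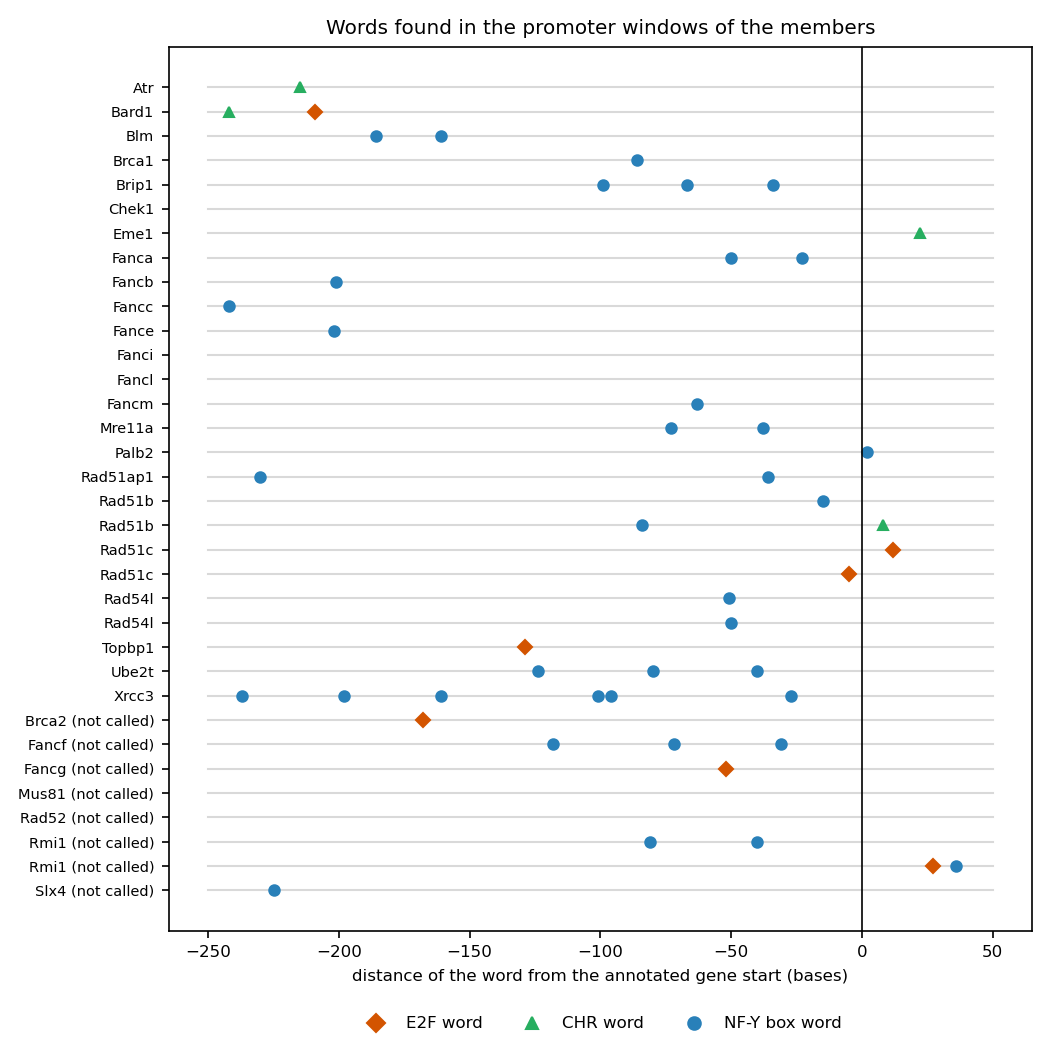
Positions of E2F, CHR and NF-Y box words in the 34 promoter windows of 30 genes, as the distance in bases of the first base of each word from the annotated gene start (vertical line); each grey line is a window, and genes that did not pass the test are at the bottom. NF-Y box words lie in 18 genes, called and not called, and E2F words in 6.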

How the data were processed

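The 4 knockout and 4 WT RNA-seq libraries of crypts were grouped by the genotype and replicate number in their labels. The submitters' processing notes list HISAT2 and DESeq2 but no role for either. The sources used here give no counting program, genome build, annotation or strandedness. The authors deposited estimated counts per gene, of which 8.04 to 9.18 percent per library were not whole, and these were rounded. The authors' second set of values has no unit in the file headers and was taken as FPKM, since value over count mostly followed the library totals. The median deviation was 0.347 percent over 3363 genes and 0.925 percent in the 39 members. The largest deviation over the 3363 genes was 62 percent. Depth ranged from 9481201 to 16231099 counts.

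Rounded counts went through filterByExpr, TMM, glmQLFit and glmQLFTest of edgeR 4.0.16 (R 4.3.3), with genotype as the only term and 12908 genes in the fit; the standard error is the log2 fold divided by the square root of F. The test was tried on simulated data. How the animals were bred or handled is not in the labels, and the p-values cover no more than the spread of these 8 libraries. Replicates differed by at least 5.93 times sampling variance per gene, more than the same library read again would give. WT replicates 1 and 2 were the closest pair (5.93), against 27.6 to 121 in the other pairs. This check cannot tell whether any libraries came from the same animal or pool. Same-numbered libraries deviated together (correlations of 0.35 to 0.535 for the 4 pairs, against −0.516 to 0.496 for different numbers). By the rule used here this pairs the libraries, but the main test and its p-values leave the pairing out. A replicate block was fitted as an alternative. Knockout replicate 1 also correlated with WT replicate 2 (0.496) and knockout replicate 2 with WT replicate 1 (0.26), so the numbers 1 and 2 are not clearly distinguished; what a shared number stands for is not in the labels.

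Alternatives were RLE, upper-quartile and total-count scaling, scaling to division markers, other filters, DESeq2 1.42.0, a replicate block and leaving out libraries. Values in every library are given, per role, for the 2 genes of smallest p among those with a mean of at least 50 counts; Slx4, Brca2 and Rmi1 were added after their values were seen. The members and lists were chosen with earlier results of these data known. In GENCODE M21 (GRCm38), exons of 17 members overlap a gene on the opposite strand, and Rad54b shares 2068 exonic bases with Fsbp on the same strand; 10 members had counts that were not whole. Reads of such pairs may not be told apart, since strandedness is unknown.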

Additional observations from a re-analysis of the deposited data

Results flagged for a closer look

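In 2 of 84 sets of 4 libraries that were checked, 1 library stood far from the other 3; chance alone gives this in about 1 of 20 sets. Mre11a in WT replicate 4 was at 47.63 CPM, against 40.27 to 41.23 CPM in the other WT libraries, and the gene was called lower with and without that library. Rad51c in knockout replicate 4 was at 2.994 CPM, against 1.994 to 2.059 CPM in the other knockout libraries.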

How the results depend on the processing

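Of the 31 called members, 24 kept their call in 17 alternatives, all but the scaling to division transcripts; the others were Fancl, Fancc, Rad50, Rbbp8, Palb2, Rad51b and Rad51c. Leaving out 1 library at a time gave 28 to 32 members called lower and 0 higher, and 4988 to 6328 genes called in all. Between 18.2 and 24.7 percent of all tested genes were then called lower. With the replicate block 32 members fell, against 27.5 percent of all tested genes. Brca2 (−0.69) was the addition, and no other member's call changed. Total-count scaling moved the median log2 fold of all genes to −0.228, against 0.034 with TMM, and put 65.8 percent of calls on the lower side, against 48.7 percent. The median of the members was then −1.205.

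Scaled to division transcripts, 10820 genes were called, 10805 higher and 15 lower, and 14 members were called, 14 higher and 0 lower. That scale puts the median over all genes in the fit at a log2 fold of 1.209, against 0.034 with TMM. The log2 folds of the members move upward with it. A member whose fall was smaller than its upward move changes sign by construction. Bard1 moved from −1.1435 to 0.0011 and changed sign, while Brip1 moved from −1.1503 to −0.0075 and did not. The members and listed genes with a changed sign were Fanca 0.023, Fancc 0.49, Fance 0.53, Fancg 0.83, Fancl 0.39, Fancm 0.053, Ube2t 0.054, Fancd2 0.015, Mus81 1.00, Mre11a 0.44, Rad50 0.47, Nbn 0.50, Rbbp8 0.73, Brca1 0.37, Bard1 0.0011, Palb2 0.19, Brca2 0.46, Rad51b 0.30, Rad51c 0.33, Rad51d 0.95, Xrcc2 0.17, Xrcc3 0.20, Rad52 0.94, Rad54b 0.10, Blm 0.16, Atr 0.38, Topbp1 0.19, Chek1 0.063, Faap24 0.20, Rad9a 0.27, Usp1 0.39, Clspn 0.033. The sign of genes near 0 also turned: Fancf −0.066, Slx4 −0.085, Rmi1 −0.033 (upper-quartile factors); Fancf −0.26, Slx4 −0.23, Rmi1 −0.20 (total-count scaling); Fancf −0.0023, Slx4 −0.036 (no low-count filter); Slx4 −0.026 (replicate block); Slx4 −0.099 (replicates 1 to 3 alone); Fancf −0.36 (KO replicates 3 and 4 against all WT); Fancf −0.15 to 0.15 (leaving out 1 library); Rmi1 −0.024 to 0.12 (leaving out 1 library); Slx4 −0.15 to 0.078 (leaving out 1 library). The share of members with a seed match was 20.5 percent with the 6-base match, against 5.13 percent.

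The lowest members, Rad51b and Rad51c, had 1.68 to 5.02 CPM. Single libraries decided the calls of Rad51c in 5 omissions, of Rbbp8 in 3 and of Rad51b and Fancl in 1 each. Both groups hold 4 libraries of bulk tissue. The cause of the changes across settings was not tested.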
